A study of Mus musculus with 2 samples.

Results

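The 50 genes described here are known for their transcription in the S phase and in the G2 and M phases of the cell cycle, and they were taken as a fixed list of 21 S genes and 29 G2/M genes out of 32285 features in the count matrices. All 50 symbols were found in the matrices, and each gene had at least 10 UMIs over both libraries. The rule that lists them uses no measured value, but the members were chosen with earlier results of these data known.

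Single-cell RNA was measured in CD45+ Dapi- leukocytes sorted from brown adipose tissue (BAT), in 1 control and 1 AdipoΔ/Δ library. Both libraries came from male AdipoQ-CreERT2 ATGLfl/fl mice on C57Bl/6, to which the labels give an age of 16 weeks and the study's text a younger one. ATGL is a lipase that releases fatty acids from stored triglycerides, and its floxed alleles are removed by a Cre that the adiponectin promoter drives in adipocytes and that tamoxifen switches on. Control mice received the vehicle and AdipoΔ/Δ mice received tamoxifen, so the drug and the loss of ATGL cannot be told apart, and the leukocytes measured here are not the cells that this promoter targets. How many mice were pooled per library is not given in the sources used here. Each condition is 1 library, so conditions were compared by values and not by a test.

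Cells divide after copying their DNA in S phase and separating the copies in mitosis. Transcription factors of the E2F family switch on replication genes as cells enter S phase, and the DREAM and MuvB complexes, with B-MYB and FOXM1, time the mitotic genes through promoter elements that include the CHR and the CCAAT box. In adipose tissue, leukocyte numbers are set both by cells that arrive from the blood and by division of cells already in the tissue, as is known for macrophages and for innate and adaptive lymphocytes.

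The control library held 2597 barcodes with 11327187 UMIs and the AdipoΔ/Δ library 2381 barcodes with 12028844 UMIs. After filtering, 2279 control and 2016 AdipoΔ/Δ cells were kept, with a median of 3678 and 3942 UMIs. Levels are given as CPM, the UMIs of a gene summed over a class of cells and scaled to a fixed total of all UMIs of that class, with 95% Poisson intervals in parentheses. Shares of cells are given after each cell was thinned to 2000 UMIs, with 95% Clopper-Pearson intervals (for a share of 0, the share that 3 cells would give is named as the limit), and 620 control and 554 AdipoΔ/Δ cells were too shallow to enter them. Ratios are AdipoΔ/Δ over control with conditional binomial intervals. All these intervals cover counting error only, and since UMIs of 1 cell are not independent, those of the levels and ratios are too narrow. Classes carry the name of a cell type with "-like" and come from clusters built without cell cycle genes, so that dividing cells fall among the cells they otherwise resemble. The libraries share 4 barcodes.

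Promoters of 42 of the 50 members were matched in RefSeq (GRCm38.p6). The 6 runs shown here belong to an S gene with E2F-like motifs, to the S gene and the mitotic genes on which the values below turn, and to a mitotic gene that was also detected in cells without the others (*Kif23*, chosen after its values were seen). Each is the stretch of 120 bases that ends at the annotated start, written from 5′ to 3′ on the gene's strand. Capitals mark E2F-like (TTTCGCGC, TTTGGCGC or TTTCCCGC), CHR-like (TTTGAA) and CCAAT motifs read on both strands, and in *Mcm6* 2 overlapping E2F-like motifs form the first capital run.
Mcm6 (chr1:128359706-128359825, minus strand): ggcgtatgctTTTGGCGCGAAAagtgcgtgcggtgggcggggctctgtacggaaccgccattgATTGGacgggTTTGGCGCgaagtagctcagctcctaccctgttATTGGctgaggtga
Pcna (chr2:132253181-132253300, minus strand): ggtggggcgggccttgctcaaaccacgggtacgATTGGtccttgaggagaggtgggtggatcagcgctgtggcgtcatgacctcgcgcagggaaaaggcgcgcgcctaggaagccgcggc
Mki67 (chr7:135716380-135716499, minus strand): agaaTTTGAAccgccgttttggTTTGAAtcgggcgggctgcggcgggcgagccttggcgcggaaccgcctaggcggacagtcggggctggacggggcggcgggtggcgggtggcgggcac
Top2a (chr11:99024190-99024309, minus strand): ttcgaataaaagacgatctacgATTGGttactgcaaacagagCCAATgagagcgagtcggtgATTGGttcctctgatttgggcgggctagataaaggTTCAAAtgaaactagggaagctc
Cdk1 (chr10:69352913-69353032, minus strand): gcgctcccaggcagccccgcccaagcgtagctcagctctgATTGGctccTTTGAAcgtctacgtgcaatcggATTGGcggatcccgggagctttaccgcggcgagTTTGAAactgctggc
Kif23 (chr9:61946800-61946919, minus strand): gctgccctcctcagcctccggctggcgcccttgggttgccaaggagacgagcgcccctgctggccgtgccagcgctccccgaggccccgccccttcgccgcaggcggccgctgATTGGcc

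In the 250 bases before the start, CCAAT stood in 22 of 24 G2/M promoters and 12 of 18 S promoters, against 34.5% of all 27025 promoters and 36.6% of the 10088 promoters of genes with at least 10 UMIs. The CHR-like motif stood in 11 of 24 G2/M and 3 of 18 S promoters, against 16.3% of all and 11.1% of those of measured genes. All 11 of these G2/M promoters also held CCAAT, a pair found in 5.73% and 4.21%. An E2F-like motif stood in 4 of 18 S promoters and 1 of 24 G2/M promoters, against 1.59% and 3.07%. A match is a description of letters in a window, and it was not tied to binding here.

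Over all kept cells the S genes summed to 315 CPM (305 to 326) in the control and 603 CPM (589 to 618) in the AdipoΔ/Δ library, a ratio of 1.91 (1.84 to 1.99). The G2/M genes summed to 1077 CPM (1058 to 1097) and 1180 CPM (1160 to 1201), a ratio of 1.1 (1.07 to 1.12). That total was carried by *Hmgb2*, a chromatin protein that cells outside division also express, with 57.2% of the control and 41.4% of the AdipoΔ/Δ G2/M UMIs. For this reason 24 core G2/M genes are also given, which leave out *Hmgb2*, *Smc2*, *Smc4*, *Tubb4b* and *Stmn1*. The core summed to 223 CPM (214 to 232) and 342 CPM (331 to 352), a ratio of 1.53 (1.46 to 1.61). Of the S genes, 19 of 21 were at least 1.5 times higher and 0 at least 1.5 times lower in the AdipoΔ/Δ library. Of the G2/M genes, 18 of 29 were higher and 0 lower by that measure, and among all 13230 genes with at least 10 UMIs 18% were higher and 7.77% lower.

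The class make-up of the libraries differed beside these totals. Macrophage-like cells were 5.35% of control and 20.6% of AdipoΔ/Δ cells, neutrophil-like cells 13.8% and 8.58%, and B cell-like cells 11.5% and 4.66%. With the AdipoΔ/Δ classes weighted to the class shares of the control library, the ratio was 1.61 for the S genes and 1.06 for the G2/M genes.

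Among the S genes, *Pcna*, the sliding clamp of DNA polymerases, had the most UMIs and stood at 75.7 CPM in the control and 145 CPM in the AdipoΔ/Δ library, a ratio of 1.92 (1.76 to 2.09). *Slbp*, which binds histone mRNA, had the smallest ratio of the S genes, with 57.8 and 73.1 CPM (1.26, 1.14 to 1.4). *Pcna* and *Slbp* are expressed widely outside S phase. *Dut*, which keeps uracil out of DNA, stood at 29.6 and 46.5 CPM. The MCM genes encode the helicase that is loaded at replication origins, and all 6 listed were higher in the AdipoΔ/Δ library. *Mcm5* stood at 12.9 and 31 CPM (2.4, 1.97 to 2.94), *Mcm3* at 15.6 and 36.8 CPM (2.36, 1.97 to 2.84) and *Mcm6* at 20.4 and 36.2 CPM (1.78, 1.51 to 2.11). The lowest MCM ratio was that of *Mcm4*, with 17.8 and 23.7 CPM (1.33, 1.1 to 1.61).

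Among the genes of nucleotide supply, *Tyms*, which makes thymidylate, had 32 and 185 UMIs, or 2.98 and 16.3 CPM, a ratio of 5.49 (3.76 to 8.27). *Rrm1*, the large subunit of ribonucleotide reductase, stood at 14.2 and 33.5 CPM (2.35, 1.95 to 2.86). *Uhrf1*, which guides maintenance methylation to newly copied DNA, had the largest ratio of the 21 S genes, with 20 and 170 UMIs (8.08, 5.07 to 13.6). The licensing and firing factors *Cdt1*, *Cdc6*, *Cdc45* and *Gins2* had ratios between 1.64 and 3.3.

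Of the core G2/M genes, *Mki67*, which coats mitotic chromosomes, stood at 32.3 CPM in the control and 44.3 CPM in the AdipoΔ/Δ library (1.37, 1.19 to 1.58). *Top2a*, the topoisomerase that untangles sister DNA, stood at 34.9 and 47 CPM (1.35, 1.18 to 1.54). Neither passed 1.5-fold, while the cyclins and their kinase did. *Ccna2*, cyclin A2, stood at 3.44 and 9.19 CPM (2.67, 1.82 to 4), *Ccnb1*, cyclin B1, at 1.3 and 3.45 CPM (2.65, 1.41 to 5.28) and *Cdk1*, the kinase that drives entry into mitosis, at 5.95 and 12.8 CPM (2.15, 1.59 to 2.94). *Aurkb*, the kinase of the chromosomal passenger complex, stood at 5.21 and 12.1 CPM (2.32, 1.69 to 3.23). The largest G2/M ratio was that of the checkpoint kinase *Bub1*, on 8 and 53 UMIs (6.3, 2.97 to 15.3).

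The 5 G2/M genes left out of the core differed among themselves. *Stmn1*, a microtubule destabilizer, stood at 47.8 and 111 CPM (2.32, 2.09 to 2.58). *Smc4*, a condensin subunit, stood at 94.6 and 111 CPM (1.17, 1.08 to 1.28), and the tubulin *Tubb4b* at 76.7 and 86.7 CPM (1.13, 1.03 to 1.24). *Hmgb2* had the lowest ratio of all 50 genes, with 616 and 489 CPM (0.793, 0.765 to 0.822). *Hmgb2*, *Stmn1* and *Tubb4b* have near-identical relatives or pseudogenes in the genome, so their counts are less certain.

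Core G2/M UMIs sat in few cells. In the control library 19 of 1659 thinned cells (1.15%, 0.691 to 1.78) held at least 3 different core G2/M genes, and in the AdipoΔ/Δ library 45 of 1462 did (3.08%, 2.25 to 4.1). These cells held 75.3% and 76.2% of the core UMIs of the thinned cells of their library, a share favoured by their choice on the same genes. A further 173 control and 193 AdipoΔ/Δ cells held 1 or 2 core genes, so the count of 3 is a point on a range and no boundary of a cell type. Among all kept cells, the cell with the most core UMIs held 15.7% of them in the control and 5.43% in the AdipoΔ/Δ library. With at least 3 core genes the median cell had 8191 UMIs in the control and 9382 in the AdipoΔ/Δ library before thinning, against 5023 and 5600 UMIs in cells with none. None of the 64 cells was called a doublet, but the caller marked only 8 control and 6 AdipoΔ/Δ barcodes, so doublets may remain, and the deepest of the 64 had 40496 UMIs. With the class shares of the control library in both, the difference between the libraries was 0.792 percentage points.

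**Figure D1:**
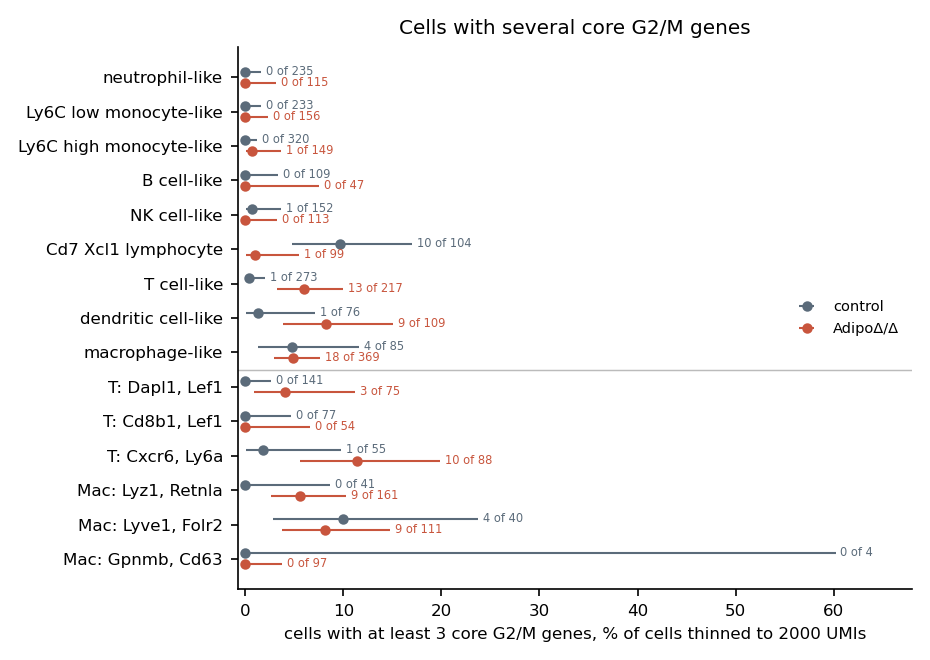
Share of cells with at least 3 of the 24 core G2/M genes, in percent of cells thinned to 2000 UMIs, for each class (above the line) and for clusters of T cell-like (T) and macrophage-like (Mac) cells (below it), with 95% Clopper-Pearson intervals and the cells behind each share. The share was higher in the AdipoΔ/Δ library for T cell-like cells (0.366% and 5.99%) and dendritic cell-like cells (1.32% and 8.26%), close in both for macrophage-like cells (4.71% and 4.88%), and higher in the control for *Cd7* *Xcl1* lymphocytes (9.62% and 1.01%).

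Each core gene was compared between cells defined by the other core genes, over both libraries together. *Mki67* stood at 888 CPM in the 63 cells with at least 3 other core genes and at 5.22 CPM in the cells with none, and it had a UMI in 68.3% and 0.701% of them. *Top2a* stood at 958 and 5.79 CPM, *Cdk1* at 191 and 1.55 CPM, and *Ccna2* at 168 and 0.115 CPM. The S genes, none of which entered the choice of these cells, were also higher there. *Rrm2*, the small subunit of ribonucleotide reductase, stood at 238 and 1.21 CPM, *Tyms* at 138 and 3.8 CPM, *Mcm5* at 145 and 14.8 CPM and *Pcna* at 415 and 95 CPM. *Slbp* had the smallest ratio of the S genes, with 197 and 58.2 CPM. *Kif23*, a kinesin of the central spindle, and *Cenpa*, the histone variant of the centromere, were the core genes with the lowest ratios. They stood at 197 against 15.6 CPM and 275 against 15 CPM. Of the genes left out of the core, *Stmn1* stood at 1313 against 22.4 CPM and *Smc2* at 300 against 18.5 CPM. Their ratios, 58.7 and 16.3, were above that of *Kif23* (12.6), so the core is a listed choice and not a ranking by this measure.

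**Figure D2:**
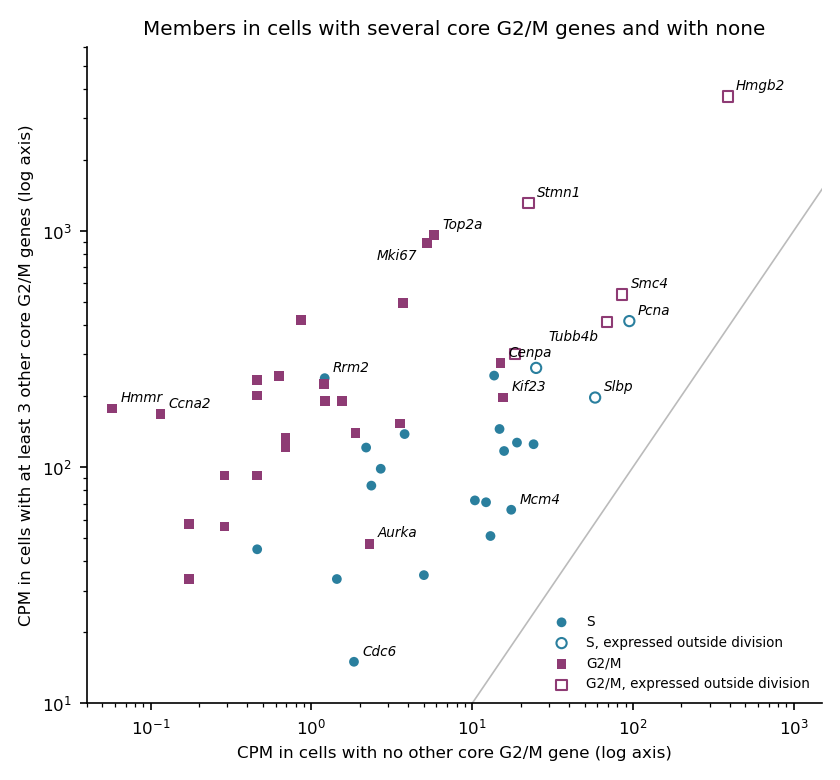
Level of each of the 50 genes, in CPM on log axes over both libraries, with a line of equality. Cells with at least 3 other core G2/M genes are set against cells with none. Open symbols mark *Pcna*, *Slbp*, *Dut* and the G2/M genes left out of the core, named in the key as expressed outside division. All points lie above the line, with *Hmmr* (177 and 0.0575 CPM) farthest from it and *Slbp* (197 and 58.2 CPM) nearest.

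Other cell cycle genes from fixed lists moved with the members across these cells. The 34 further replication genes summed to 2056 CPM in cells with at least 3 core G2/M genes and 302 CPM in cells with none (6.81, 6.44 to 7.2), and 33 of the 34 were higher there. The 46 further mitotic genes summed to 5056 and 312 CPM (16.2, 15.6 to 16.9), with 45 of 46 higher. Regulators of G1, 15 genes in all, summed to 968 and 748 CPM (1.3, 1.2 to 1.39), with 13 of 15 higher. The 10 CDK inhibitors and antiproliferative genes summed to 698 and 1019 CPM (0.685, 0.628 to 0.745), with 5 of 10 higher. The share of all genes that was higher in these cells is not given here, so these counts have no background beside them.

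Cells with at least 3 core G2/M genes did not all express S genes. Of the 19 control cells, 5 had no S gene at equal depth and 8 had at least 3, with a median of 2. Of the 45 AdipoΔ/Δ cells, 8 had none and 26 had at least 3, with a median of 4. Cells with at least 3 S genes were 40 of 1659 in the control (2.41%, 1.73 to 3.27) and 93 of 1462 in the AdipoΔ/Δ library (6.36%, 5.16 to 7.74). A single S UMI told less, since 37.8% and 44.9% of all thinned cells had one, and so did 11.9% and 13% of neutrophil-like cells, which are known as cells that no longer divide. Without thinning, 52.4% and 60.5% of all cells had an S UMI. A single G2/M UMI told nothing about division, since 94% and 93.9% of neutrophil-like cells had one, largely of *Hmgb2* (1610 and 1467 CPM there).

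**Figure D3:**
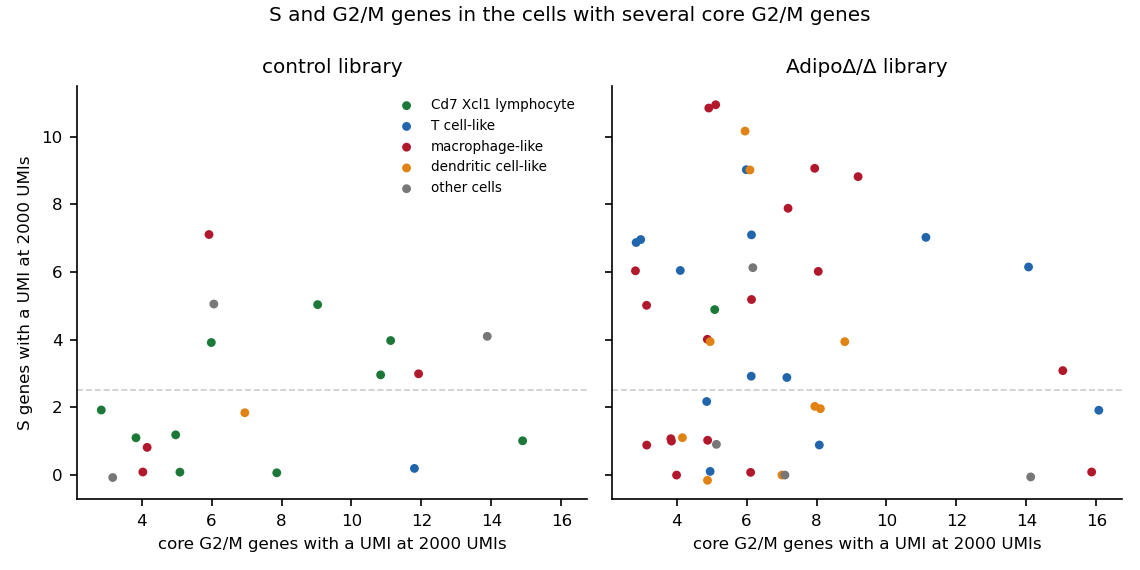
Number of S genes against number of core G2/M genes in the cells with at least 3 core genes, 19 in the control and 45 in the AdipoΔ/Δ library, thinned to 2000 UMIs, coloured by class and slightly shifted so that points do not cover each other. The cells spread from 0 S genes up to 7 in the control and 11 in the AdipoΔ/Δ library, and points above the dashed line have at least 3 S genes.

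Among the classes described next, the ratio of the core G2/M genes ran from 0.192 in *Cd7* *Xcl1* lymphocytes to 5.41 in dendritic cell-like cells. The S genes did not follow the same order. Their ratio was lowest in the unnamed cells, at 0.827 (0.407 to 1.76) on 13 and 25 UMIs. In the other classes it ran from 0.966 in *Cd7* *Xcl1* lymphocytes to 3.61 in T cell-like cells.

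**Figure D4:**
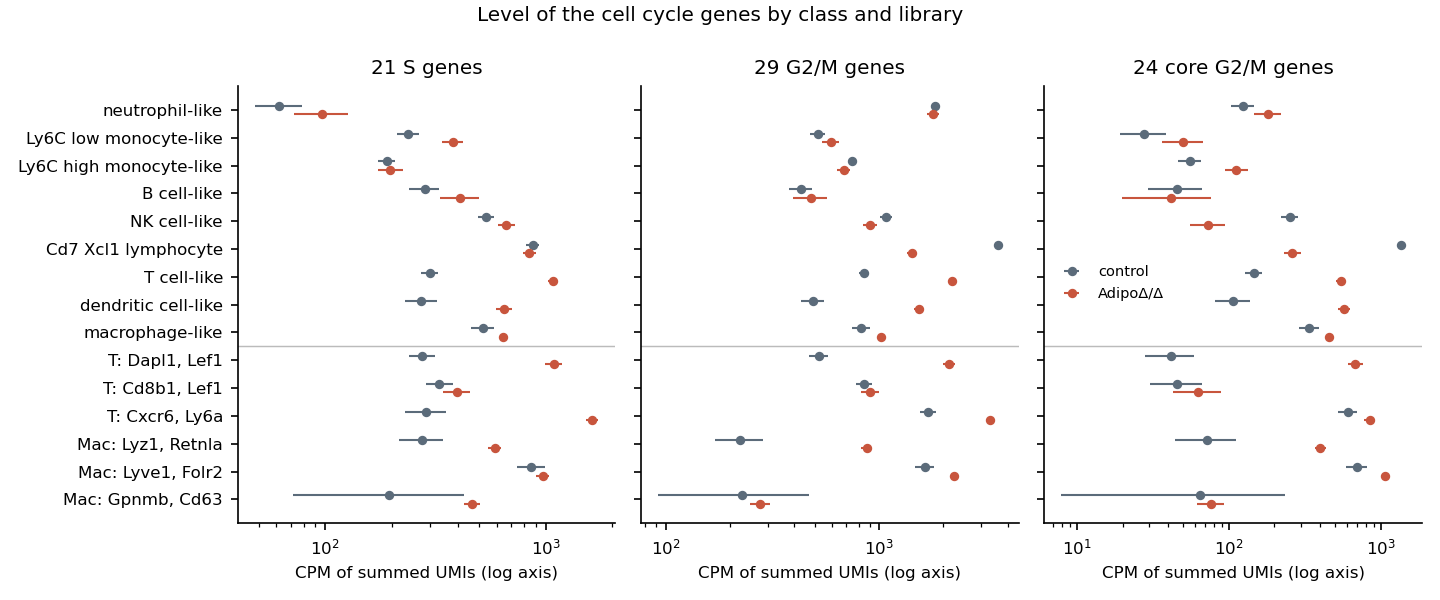
Level of the 21 S genes, the 29 G2/M genes and the 24 core G2/M genes, in CPM on log axes, for each class (above the line) and for clusters of T cell-like (T) and macrophage-like (Mac) cells (below it) in both libraries, with 95% Poisson intervals. Of the classes shown, the core G2/M level was highest in control *Cd7* *Xcl1* lymphocytes (1366 CPM, against 262 CPM in the AdipoΔ/Δ library), and higher in the AdipoΔ/Δ library in T cell-like (146 and 547 CPM) and dendritic cell-like cells (106 and 576 CPM).

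Macrophage-like cells numbered 122 in the control and 416 in the AdipoΔ/Δ library. Their S genes summed to 519 CPM (460 to 584) and 642 CPM (616 to 669), a ratio of 1.24 (1.09 to 1.41), and their core G2/M genes to 337 CPM (290 to 390) and 458 CPM (436 to 480), a ratio of 1.36 (1.16 to 1.59). *Pcna* stood at 135 and 207 CPM (1.53, 1.2 to 1.98) and *Mki67* at 33.7 and 58.7 CPM (1.74, 1.08 to 2.99). *Top2a* (46.8 and 55.4 CPM), *Mcm5* (41.2 and 36.3 CPM) and *Cdk1* (18.7 and 17.4 CPM) had intervals of the ratio that included 1. The largest S ratio was that of *Gins2*, a subunit of the replicative helicase, on 1 and 46 UMIs (6.8, 1.16 to 274), and the largest G2/M ratio that of *Hmmr*, a spindle protein, on 2 and 56 UMIs (4.14, 1.09 to 35). The lowest S ratio was that of the licensing factor *Cdc6*, on 5 and 12 UMIs (0.355, 0.116 to 1.29). At least 1.5 times higher were 9 of 21 S genes and 10 of 28 G2/M genes with enough UMIs, and 1 S gene and 0 G2/M genes were lower, against 21.2% higher and 15.1% lower among all 10180 genes. Cells with at least 3 core genes were 4 of 85 (4.71%, 1.3 to 11.6) and 18 of 369 (4.88%, 2.92 to 7.6), each share within the interval of the other. All 22 of these cells had UMIs of at least 3 of 30 macrophage markers before thinning, and so did all 374 macrophage-like cells with no core gene. The clusters were named with the same markers, so this count could hardly have come out otherwise. All G2/M genes of the class together had a ratio of 1.24 (1.12 to 1.37), which was 0.982 when cell cycle genes were kept as clustering features and 3 control and 10 AdipoΔ/Δ cells left the class for a cluster of dividing cells.

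The macrophage subsets differed from each other. The M2-like cluster, led by *Lyve1*, *Folr2* and *Cd209f*, had core G2/M genes at 696 CPM in the control and 1070 CPM in the AdipoΔ/Δ library (1.54, 1.3 to 1.83), and 4 of 40 and 9 of 111 of its cells held at least 3 core genes. Its *Mki67* stood at 79.3 and 145 CPM and its *Top2a* at 110 and 157 CPM. The matrix cluster, led by *Lyz1*, *Retnla* and *Fcrls*, stood lower in the control, with the core genes at 72.4 and 400 CPM (5.53, 3.55 to 9.12). *Mki67* had 0 of 276224 UMIs in its 49 control cells and 70 UMIs (48.8 CPM) in its 182 AdipoΔ/Δ cells, and *Top2a* had 0 and 49 UMIs. Cells with at least 3 core genes were 0 of 41 in that control cluster, which allows a share of up to 7.32%, and 9 of 161 (5.59%, 2.59 to 10.3) in the AdipoΔ/Δ library. The lipid-associated cluster, led by *Gpnmb*, *Cd63* and *Fabp5*, held 13 control and 102 AdipoΔ/Δ cells. Its core genes stood at 65.1 and 76.3 CPM, and none of its 97 thinned AdipoΔ/Δ cells held 3 core genes, which allows up to 3.09%, whereas *Pcna* stood at 97.7 CPM on 3 UMIs and 257 CPM on 323 UMIs. In that AdipoΔ/Δ cluster *Mki67* had 9 UMIs (7.15 CPM) and *Mcm5* 21 UMIs (16.7 CPM). At least 3 S genes stood in 7 of its 97 thinned cells (7.22%, 2.95 to 14.3). In the AdipoΔ/Δ library they stood in 14 of 161 cells of the matrix cluster (8.7%, 4.84 to 14.2) and 14 of 111 of the M2-like cluster (12.6%, 7.07 to 20.3).

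T cell-like cells, 387 in the control and 277 in the AdipoΔ/Δ library, had S genes at 298 and 1075 CPM (3.61, 3.26 to 4) and core G2/M genes at 146 and 547 CPM (3.75, 3.25 to 4.34). All 21 S genes and 25 of 27 G2/M genes were at least 1.5 times higher and 0 lower, against 25.1% higher and 8.47% lower among all 9604 genes. *Pcna* stood at 68.4 and 158 CPM (2.32, 1.85 to 2.92), *Mcm5* at 8.47 and 53 CPM (6.25, 3.53 to 11.9) and *Tyms* at 2.42 and 46 CPM (19, 7.12 to 71.7). *Rrm2* had 0 UMIs in the control and 67 UMIs in the AdipoΔ/Δ library, which is 4.54 on the log2 scale against a floor of 3 counts over the class, and the interval of the ratio starts at 18.4. *Mki67* stood at 9.08 and 73.2 CPM (8.06, 4.69 to 14.9), *Top2a* at 8.47 and 92.7 CPM (10.9, 6.32 to 20.5) and *Cdk1* at 4.84 and 15.1 CPM (3.13, 1.36 to 8.05). The largest G2/M ratio was that of *Nusap1*, a spindle protein, on 1 and 25 UMIs (26.1, 4.27 to 1070), and the lowest that of *Smc4*, with 261 and 232 CPM (0.89, 0.772 to 1.03).

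Cells with at least 3 core genes were 1 of 273 control (0.366%, 0.00927 to 2.02) and 13 of 217 AdipoΔ/Δ T cell-like cells (5.99%, 3.23 to 10). The neutrophil-like cells held 0 of 235 and 0 of 115, which allows up to 1.28% and 2.61%, at a median of 3479 and 3260 UMIs before thinning against 4647 and 5536 in the T cell-like cells. Of the 13 cells, 10 fell in the cluster led by *Cxcr6*, *Ly6a* and *Arg1* (10 of 88, against 1 of 55 in the control), which mixes T cell markers with markers of group-2 innate lymphocytes. Of these 10, 8 had a UMI of the T cell genes *Cd3d*, *Cd3e*, *Cd3g* or *Trac*, and 2 had only *Gata3*, *Il1rl1* or *Arg1*. In that cluster the S genes stood at 288 and 1629 CPM (5.66, 4.54 to 7.14) and the core G2/M genes at 609 and 846 CPM (1.39, 1.17 to 1.65). The other 3 cells fell in the cluster led by *Dapl1*, *Lef1* and *Cd3d* (3 of 75, against 0 of 141), where the core genes stood at 41.7 and 681 CPM (16.3, 11.3 to 24.5). These 3 cells gave 130, 107 and 59 of the 319 core UMIs of the AdipoΔ/Δ cluster and had 40496, 34484 and 6192 UMIs in all. Without the cell with the most core UMIs in each library the core genes stood at 31 and 442 CPM. Each of the 3 had a UMI of the same T cell genes and one of *Gata3*, *Il1rl1* or *Arg1*. The cluster led by *Cd8b1*, *Lef1* and *Il7r* had no such cell in either library, with core genes at 45.9 and 63.1 CPM (1.37, 0.802 to 2.37). In the control class 1 cell gave 100 of the 241 core UMIs (41.5%). When only cells with at least 500 detected genes were clustered, 9 control cells of the *Cd7* *Xcl1* cluster described below joined the T cell-like class, and the ratio of its G2/M genes, 2.58 in the main clustering, was 0.949.

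Dendritic cell-like cells numbered 86 and 118, and their core G2/M genes stood at 106 CPM on 57 UMIs and 576 CPM on 471 UMIs (5.41, 4.11 to 7.26). One control cell gave 41 of the 57 UMIs. *Mki67* stood at 5.6 and 84.4 CPM (15.1, 4.95 to 74.9), *Top2a* at 11.2 and 93 CPM (8.3, 3.64 to 23.3) and *Stmn1* at 46.7 and 221 CPM (4.74, 3.11 to 7.53). *Aurkb*, on 1 and 29 UMIs, had the largest G2/M ratio (19, 3.15 to 776), and *Cenpa* the lowest, with 16.8 and 30.6 CPM (1.82, 0.822 to 4.43). The S genes stood at 272 and 649 CPM (2.38, 1.98 to 2.88), with *Rrm2* on 2 and 24 UMIs at the top (7.86, 1.95 to 68.7) and *Slbp* lowest (35.5 and 36.7 CPM, 1.03, 0.564 to 1.95). Higher by at least 1.5 times were 16 of 18 S genes and 21 of 21 G2/M genes with enough UMIs and 0 were lower, against 25.4% higher and 11.1% lower among all 7528 genes. Without the cell with the most core UMIs in each library, 17 of 17 G2/M genes were still higher. Cells with at least 3 core genes were 1 of 76 (1.32%, 0.0333 to 7.11) and 9 of 109 (8.26%, 3.85 to 15.1). The class rests on few markers per cell, with a median of 2 of 9 dendritic cell markers before thinning both in the cells with at least 3 core genes and in those with none.

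**Figure D5:**
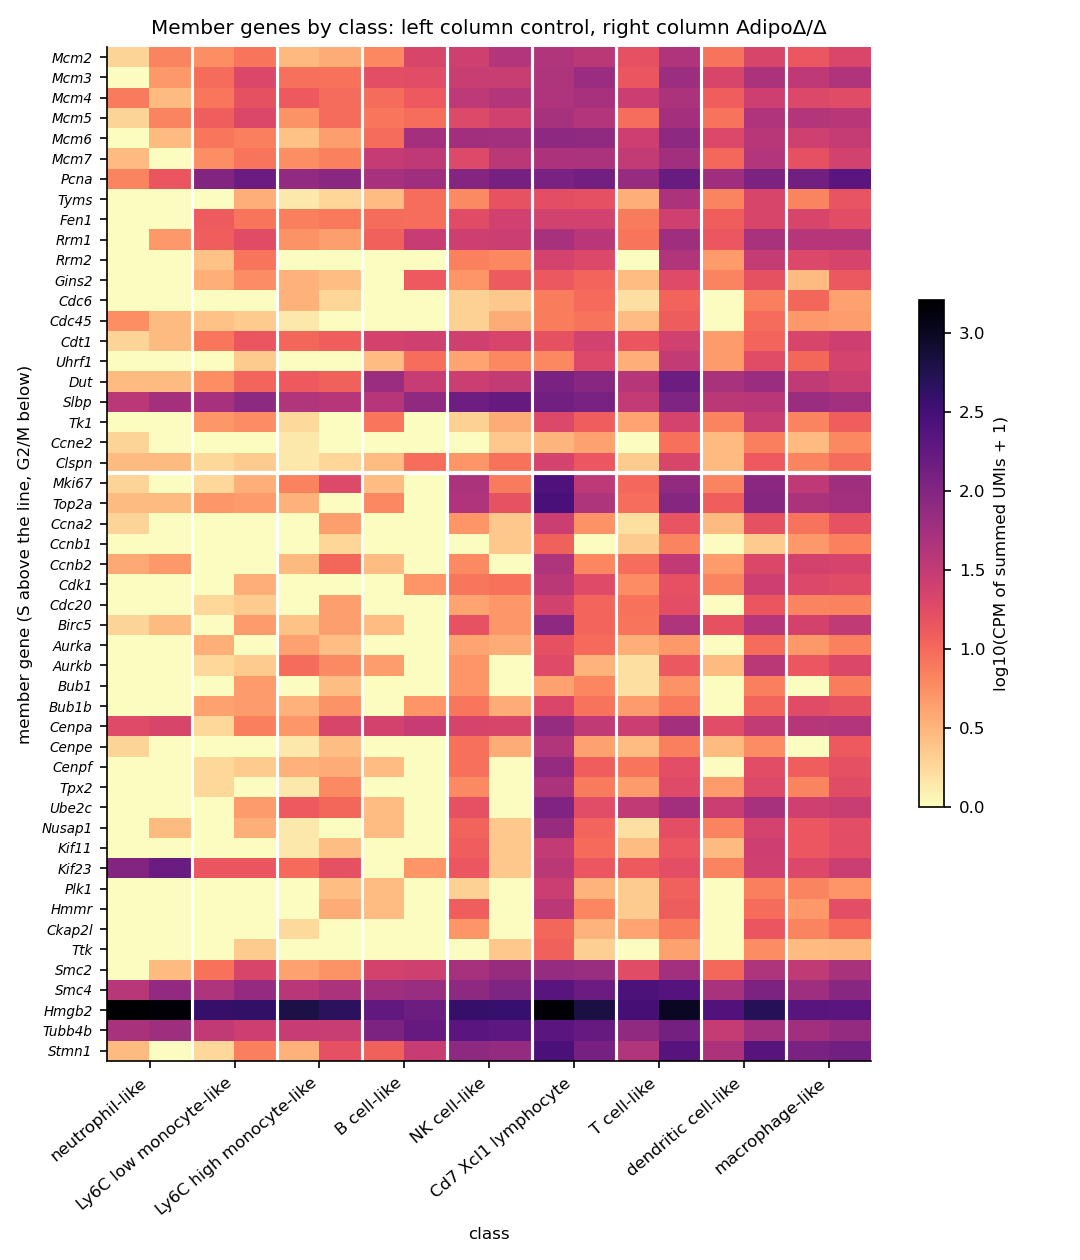
Level of each of the 50 genes by class, as log10 of CPM plus 1, with the control in the left and the AdipoΔ/Δ library in the right column of each class and the S genes above the G2/M genes. *Hmgb2* is dark in every class, most G2/M genes are pale in neutrophil-like and B cell-like cells except *Kif23* in the former (97.5 and 152 CPM), and the G2/M genes of the *Cd7* *Xcl1* lymphocytes are darker in the control (*Mki67* at 255 and 34 CPM).

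A cluster of lymphocytes led by *Cd7* and *Xcl1* had core G2/M genes at a lower level in the AdipoΔ/Δ library. It held 105 control and 102 AdipoΔ/Δ cells and bore no cell type name. Its core G2/M genes stood at 1366 CPM on 1297 UMIs and at 262 CPM on 239 UMIs (0.192, 0.167 to 0.221), while its S genes stood at 874 and 844 CPM (0.966, 0.874 to 1.07). *Mki67* stood at 255 and 34 CPM (0.134, 0.0888 to 0.195), *Top2a* at 285 and 45 CPM (0.158, 0.111 to 0.22) and *Ccna2* at 26.3 and 4.39 CPM (0.167, 0.0422 to 0.483). *Cenpe*, a kinesin that moves chromosomes to the spindle equator, had the lowest ratio, with 42.1 and 3.29 CPM (0.0782, 0.0155 to 0.245). *Pcna* stood at 117 and 137 CPM (1.17, 0.902 to 1.53) and *Tyms* at 15.8 and 15.4 CPM (0.973, 0.435 to 2.16). The median log2 ratio was -2.35 over the G2/M genes and -0.04 over the S genes with enough UMIs, and 0.12 over all genes. Lower by at least 1.5 times were 25 of 28 G2/M genes and 2 of 20 S genes, and higher were 0 G2/M and 2 S genes, against 17.7% higher and 9.08% lower among all 9016 genes. Without the cell with the most core UMIs of each library, 21 of 25 G2/M genes were lower and 0 higher.

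In this cluster 10 of 104 control cells (9.62%, 4.71 to 17) and 1 of 99 AdipoΔ/Δ cells (1.01%, 0.0256 to 5.5) held at least 3 core genes. The control cell with the most gave 375 of 1297 core UMIs (28.9%), and the AdipoΔ/Δ cell gave 156 of 239 (65.3%). Genes of natural killer cells in the 10 control cells were looked at after their values were seen. All 10 had a UMI of *Ncr1*, an activating receptor of natural killer cells and other innate lymphocytes, 9 had one of *Klrb1c*, and 0 had one of *Cd3d*, *Cd3e* or *Trac*. In the 84 control cells of the cluster with no core gene, *Ncr1* had a UMI in 84.5%, *Klrb1c* in 92.9%, *Cd3d* in 20.2%, *Cd3e* in 11.9% and *Trac* in 19%. Over both libraries, 10 of the 11 cells with at least 3 core genes had UMIs of at least 3 of 8 NK cell markers and 4 had UMIs of at least 3 of 8 T cell markers, against 155 and 65 of the 168 cells with none. The median was 3 of the 8 NK cell markers in the 11 cells and 6 in the 168. The 11 cells were the deeper ones, with a median of 14991 against 8252 UMIs before thinning. *Gzma*, a granule protease, had a UMI in 3 of the 10 and in 64.3% of the 84. For *Prf1* these were 3 of the 10 and 83.3% of the 84. *Eomes*, a transcription factor of mature natural killer cells, had a UMI in 2 of the 10 and in 53.6% of the 84.

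The name of this cluster and its border with the NK cell-like class depended on the clustering. With 30 principal components a separate cluster led by *Ctla2a*, *Klrc1* and *Cd7* (94 and 89 cells) was itself named NK cell-like. The 10 control cells bore the NK cell-like name there. With libraries merged without integration, the 10 control cells joined an NK cell-like cluster of 252 control and 205 AdipoΔ/Δ cells. They stayed in the *Cd7* *Xcl1* cluster at a resolution of 2.0. NK cell-like cells in the main clustering numbered 156 and 115, with S genes at 538 and 664 CPM (1.23, 1.09 to 1.4) and core G2/M genes at 252 and 73.3 CPM (0.291, 0.214 to 0.391). One control cell gave 214 of the 247 core UMIs (86.6%). By 1.5 times, 5 of 16 S genes were higher and 9 of 16 G2/M genes lower, with 0 the other way, against 14% higher and 9.24% lower among all 8698 genes. Without the cell with the most core UMIs of each library, 0 of 6 G2/M genes were lower and 3 were higher. Taken as 1 class, the NK cell-like and *Cd7* *Xcl1* cells had core G2/M genes at 799 and 176 CPM (0.22, 0.194 to 0.25), S genes at 703 and 762 CPM (1.08, 1 to 1.17), and 11 of 256 and 1 of 212 cells with at least 3 core genes. The ratio of all their G2/M genes was 0.51 (0.483 to 0.538), and 1.14 with at least 500 detected genes, where 9 of the 10 control cells fell among T cell-like cells.

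Monocytes held few cells with several core genes. Ly6C high monocyte-like cells, 365 and 166 in number, had core G2/M genes at 55.3 and 112 CPM (2.03, 1.59 to 2.6), of which 1 AdipoΔ/Δ cell gave 47 of 131 UMIs, and S genes at 190 and 197 CPM (1.04, 0.886 to 1.22). At least 3 core genes stood in 0 of 320 and 1 of 149 of them. *Mki67* stood at 5.84 and 18 CPM (3.08, 1.52 to 6.43) and *Hmgb2* at 622 and 476 CPM (0.766, 0.694 to 0.844). Ly6C low monocyte-like cells, 349 and 282 in number, had core genes at 27.6 and 50.3 CPM on 35 and 41 UMIs (1.82, 1.13 to 2.94) and no cell with 3 core genes among 233 and 156. Their S genes stood at 238 and 379 CPM (1.59, 1.35 to 1.87), with *Pcna* at 99.4 and 151 CPM (1.52, 1.17 to 1.96) and *Slbp* at 50.5 and 82.1 CPM (1.63, 1.14 to 2.33).

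B cell-like cells, 262 and 94 in number, had 26 and 10 core G2/M UMIs (45.4 and 41.4 CPM, 0.912, 0.393 to 1.96) and no cell with 3 core genes among 109 and 47. Their S genes stood at 283 and 410 CPM (1.45, 1.12 to 1.87), with *Mcm6* on 5 and 13 UMIs highest in ratio (6.17, 2.06 to 22.1) and *Dut* on 36 and 7 UMIs lowest (0.461, 0.173 to 1.05).

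A cluster led by *Aif1* and *H2-Aa*, with no cell type name, held 82 and 196 cells, had core G2/M genes at 52.4 and 236 CPM (4.51, 2.86 to 7.42) and had 2 of 57 and 2 of 71 cells with at least 3 core genes. A single AdipoΔ/Δ cell of 21277 UMIs gave 106 of the 141 core UMIs (75.2%) and 134 of the 263 S UMIs (51%) of that library's cells, and without the cell with the most core UMIs in each library the core genes stood at 35.9 and 60.8 CPM (1.69, 0.901 to 3.34). Its AdipoΔ/Δ cells were shallow, with a median of 1045.5 UMIs against 4005 in the control. The remaining cells, 38 and 69 unnamed and 13 and 8 plasma cell-like, gave 1 cell with at least 3 core genes, an unnamed AdipoΔ/Δ cell that gave 129 of the 149 core UMIs of the unnamed AdipoΔ/Δ cells (1542 CPM, 1305 to 1811).

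Neutrophil-like cells, 314 and 173 in number, had the lowest S level of these classes in both libraries, 61.9 and 96.7 CPM (1.56, 1.06 to 2.29). Their core G2/M genes stood at 124 and 182 CPM (1.47, 1.12 to 1.93) although no cell held 3 of them. Most of that was *Kif23*, with 97.5 and 152 CPM (1.55, 1.15 to 2.1), and *Cenpa* stood at 17.8 and 20.9 CPM. *Mki67* had 1 and 0 UMIs, *Top2a* 2 and 1, and *Aurkb* 0 and 0. Of the other lists, the mitotic gene *Lmnb1*, which encodes a nuclear lamin, stood at 294 and 489 CPM in these cells, and the antiproliferative genes *Btg1* and *Btg2* at 2057 and 2314 CPM and at 1462 and 1645 CPM.

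Across classes, the further lists gave values beside the members'. In T cell-like cells, 29 of 29 replication genes with enough UMIs and 29 of 31 mitotic genes were at least 1.5 times higher in the AdipoΔ/Δ library, against 25.1% of all genes of the class. *Dnmt1*, the maintenance methyltransferase, is one of them, with 36.3 and 85.1 CPM (2.35, 1.72 to 3.23). The G1 cyclins *Ccnd3* (145 and 178 CPM) and *Ccnd2* (300 and 358 CPM) differed less there. In the *Cd7* *Xcl1* cluster 30 of 38 mitotic and 4 of 29 replication genes were lower, against 9.08% of all genes, with *Cks2*, a subunit of CDK complexes, at 93.7 and 36.2 CPM (0.386, 0.251 to 0.582) and *Usp1*, a deubiquitinase of DNA repair, at 67.4 and 68.1 CPM (1.01, 0.7 to 1.45). In macrophage-like cells 8 of 31 replication and 16 of 42 mitotic genes were higher and 2 and 6 lower, against 21.2% higher and 15.1% lower among all genes.

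When cell cycle genes were kept among the clustering features, a cluster of dividing cells formed, with 16 control and 32 AdipoΔ/Δ cells. It took 68.7% and 63.1% of the core G2/M UMIs and 14 of the 19 and 30 of the 45 cells with at least 3 core genes. In the main clustering its control cells were 8 *Cd7* *Xcl1* lymphocytes, 3 T cell-like, 3 macrophage-like, 1 dendritic cell-like and 1 NK cell-like. Its AdipoΔ/Δ cells were 12 T cell-like, 10 macrophage-like, 8 dendritic cell-like, 1 *Cd7* *Xcl1* lymphocyte and 1 of an unnamed cluster.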

How the data were processed

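The libraries were made with the 10x Genomics Single Cell 3′ v3.1 kit. The authors aligned the reads to mm10 and counted UMIs with Cell Ranger 4.0.0, and the deposited matrices hold raw counts per gene and barcode with no normalization. Because UMIs mark 3′ ends, levels were not scaled by gene length. Kept cells had 200 or more genes and no more than 10% of UMIs from mitochondrial genes, which held for 87.8% of control and 84.7% of AdipoΔ/Δ barcodes. The 2% mitochondrial limit of the study's methods would have left 1306 and 889 barcodes.

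Clusters were built with SCTransform (sctransform 0.4.2) and anchor integration in Seurat 5.3.0 (R 4.3.3) on 20 principal components at a resolution of 1.0. Of 2000 selected features, 1895 were used after the members, other cell cycle genes and their correlates (Pearson correlation of at least 0.2) were dropped. This gave 17 clusters, named from fixed markers with thresholds set after the clusters were seen (at least 3 markers in at least 10% of cells). Scrublet in Scanpy 1.11.5, at an expected rate of 0.02, called 8 control and 6 AdipoΔ/Δ barcodes (0.308% and 0.252%), which were kept.

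UMIs were summed per class and library, and cells were thinned to 2000 UMIs by 1 seeded draw. Intervals came from SciPy 1.17.1 and NumPy 2.4.6 at 95%, and a floor of 3 counts stood for 0. The intervals, the fold calls and the thinning were run on simulated counts. For the ratios these counts were drawn independently per gene, so UMIs grouped within few cells were not covered. Clustering, class names and doublet calls were not simulated. The members, lists and alternatives were chosen with earlier results of these data known. Genes named are the 6 members with the most UMIs in each part, *Pcna*, *Mcm5*, *Tyms*, *Mki67*, *Top2a*, *Ccna2*, *Ccnb1*, *Cdk1* and *Aurkb*, the members with the largest ratio either way in a class, and the 3 genes with the most UMIs of each other list. Other genes given with values were chosen after those were seen.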

Additional observations from a re-analysis of the deposited data

Results flagged for a closer look

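The ratio of the core G2/M level, AdipoΔ/Δ over control, did not point the same way in every class, and the difference between classes was not tested. It was 1.36 in macrophage-like, 2.03 in Ly6C high monocyte-like, 1.82 in Ly6C low monocyte-like, 1.47 in neutrophil-like, 5.41 in dendritic cell-like and 3.75 in T cell-like cells, and 0.291 in NK cell-like and 0.192 in *Cd7* *Xcl1* cells. The NK cell-like value rested on 1 control cell. Without the top cell of each library the core ratio was 1.56 (0.958 to 2.55) in NK cell-like cells and 0.0932 (0.0735 to 0.117) in the *Cd7* *Xcl1* cells. The neutrophil-like value was largely *Kif23*.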

How the results depend on the processing

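With 1 library per condition, values under the alternatives were set side by side without a test, and no cause of a move was tested. No paired analysis was possible because each condition has 1 library. The values of 1 class are limited by few cells and UMIs, and a count of cells with at least 3 core genes rests on at most 18 cells in a class. Alternatives that left out the cell with the most core UMIs, or gave both libraries the class shares of the control, were chosen after seeing the data. Leaving out doublet calls, counting at least 2 or 4 core genes, or taking the expected share over all draws moved none of the main values.

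Over all kept cells, the S ratio of 1.91 was 1.59 with each cell weighted equally. It was 2.23 without *Pcna*, *Slbp* and *Dut*, and 1.61 with the class shares of the control. The G2/M ratio of 1.1 was 1.04 at a mitochondrial limit of 5%, 1.01 with each cell weighted equally and 1.53 with the core genes alone. It was 1.15 without the top cell and 1.06 with the class shares of the control. The difference in cells with a G2/M UMI was -0.554 percentage points without thinning, and that in cells with several core genes was 0.908 points at 1000 UMIs and 0.792 with the class shares of the control.

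With cell cycle genes kept as features, the G2/M ratio turned below 1 in macrophage-like cells (0.982) and above 1 in NK cell-like cells (1.28) and in NK cell-like and *Cd7* *Xcl1* cells together (1.07). Their S ratios there were 1.08 in macrophage-like cells and 1.18 in both NK groups together. The same setting gave S and G2/M ratios of 1.6 and 1.49 in dendritic cell-like, 2.95 and 1.74 in T cell-like and 1.12 and 0.687 in *Cd7* *Xcl1* cells, and differences in cells with several core genes of 1.89 points in T cell-like cells and -0.806 points in both NK groups. With at least 500 detected genes, the G2/M ratio was 0.949 in T cell-like cells, 1.14 in NK cell-like cells and 1.14 in both NK groups together, the S ratio was 2.2 in T cell-like cells and 1.21 in both NK groups, and the differences in several-gene cells were 1.44 and -0.39 points.

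A mitochondrial limit of 5% gave S and G2/M ratios of 1.63 and 1.09 in macrophage-like and 1.08 and 0.499 in NK cell-like cells. The several-gene difference in the latter was -3.67 points. Of the macrophage-like cells with at least 3 core genes, that limit left out 7 of 18 in the AdipoΔ/Δ library and kept all 4 in the control. It also left out 3 of 13 such AdipoΔ/Δ T cell-like cells and 1 of 10 such control *Cd7* *Xcl1* cells. With 30 principal components the ratios were 4.76 and 3.47 in T cell-like and 1.05 and 0.496 in NK cell-like cells, and the NK difference was -3.98 points. Libraries merged without integration gave 1.02, 0.502 and -3.96 points in NK cell-like cells. Under the 5% limit, 30 components and the merge, no *Cd7* *Xcl1* class was named and its cells counted as NK cell-like. The main values to set beside these are therefore those of both NK groups together, an S ratio of 1.08 and a G2/M ratio of 0.51. A resolution of 2.0 gave a G2/M ratio of 2.79 in T cell-like cells, and leaving out mitochondrial and ribosomal protein UMIs gave 2.4.

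With each cell weighted equally, the G2/M ratio was 1.08 in macrophage-like, 2.38 in dendritic cell-like, 1.61 in T cell-like, 1.01 in NK cell-like, 0.474 in *Cd7* *Xcl1* cells and 0.672 in both NK groups together, and the S ratio was 1.22 in Ly6C high monocyte-like and 1.97 in T cell-like cells. With the core genes alone, the G2/M ratio was 2.03 in Ly6C high and 1.82 in Ly6C low monocyte-like and 1.47 in neutrophil-like cells. It was 5.41 in dendritic cell-like, 3.75 in T cell-like, 0.291 in NK cell-like, 0.192 in *Cd7* *Xcl1* cells and 0.22 in both NK groups. The Ly6C high value is above 1 although all G2/M genes gave 0.913. The S ratio without *Pcna*, *Slbp* and *Dut* was 3.35 in dendritic cell-like, 4.14 in T cell-like and 1.89 in B cell-like cells. Without the top cell, the G2/M ratio was 0.782 in Ly6C high monocyte-like, 0.367 in *Cd7* *Xcl1* and 1.23 in NK cell-like cells, and the S ratio 3.13 in T cell-like cells. The difference in macrophage-like cells with a G2/M UMI was 25.8 points without thinning, and the T cell-like several-gene difference was 1.31 points at 1000 UMIs.

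Members at a ratio of at least 2 in either direction numbered 12 of 21 S and 9 of 29 G2/M genes over all cells, where 9.15% of all genes were higher and 3.51% lower. They were 6 of 21 (5 higher) and 3 of 28 in macrophage-like cells (9.61% and 6.29% of all genes), 2 of 16 S genes in NK cell-like cells (4.78% and 3.64%) and 1 of 20 S genes in *Cd7* *Xcl1* cells (7.39% and 4.1%). With at least 30 UMIs and the ratio of 1.5 they were 6 of 8 S and 11 of 11 G2/M genes in dendritic cell-like cells (18.6% and 5.69%), 14 of 16 G2/M genes in T cell-like cells (22.1% and 4.68%), 2 of 12 and 2 of 8 in NK cell-like cells (8.73% and 4.9%) and 2 of 14 S genes in *Cd7* *Xcl1* cells (12.2% and 5.08%). Without the top cell, 3 of 6 G2/M genes passed in NK cell-like cells (14.2% and 8.88%).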
